A study of Mus musculus and Homo sapiens with 107 samples.

Results

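The 10 genes described here are targets of the hypoxia response, several of which control glucose use: SLC2A1 (ENSG00000117394), HK2 (ENSG00000159399), PFKFB3 (ENSG00000170525), LDHA (ENSG00000134333), PDK1 (ENSG00000152256), CA9 (ENSG00000107159), VEGFA (ENSG00000112715), ADM (ENSG00000148926), NDRG1 (ENSG00000104419) and BNIP3 (ENSG00000176171). They were picked by identifier as members of these pathways, with earlier results of these data known. They are 10 of 25530 identifiers in the count tables of 2 human lines. The tables carry identifiers alone, so the symbols are those that came with the selection. CA9 was analysed in A549 only, and the other 9 genes in both lines.

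RNA was sequenced from H1299 and A549, established lines of non-small-cell lung cancer whose genotype is labelled wt. The 4 groups were H1299 with BRM014, H1299 with DMSO, A549 with BRM014 and A549 with DMSO, each with 3 libraries. BRM014 blocks, at an allosteric site, the BRM and BRG1 ATPases that drive SWI/SNF chromatin remodelling complexes. The label wt names no gene, so it does not say whether both ATPases are intact in these lines. BRM014 was given at 5 µM for 12 h, and DMSO, its solvent, for the same time. The DMSO share is 0.05% in the titles and 0.5% in the treatment field, a disagreement that the counts cannot resolve. H1299 was grown in RPMI and A549 in F12-K, and their libraries had 8 and 9 cycles of PCR, so effects of the line, of its medium and of the cycle number cannot be told apart.

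Cells sense oxygen through the HIF transcription factors. When oxygen is plentiful, HIF alpha subunits are hydroxylated, bound by VHL and degraded; when it is scarce they persist, pair with ARNT and raise a common set of target genes. Those targets bring in glucose, run it to lactate, hold pyruvate back from mitochondria, regulate pH, and signal to blood vessels. Many cancer lines express such genes in ordinary culture as well, and several also respond to growth factor and stress pathways. The labels name no oxygen level, so none is compared here.

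Depth was 30602193 to 41780029 counts per library in H1299 with BRM014 and 28412113 to 40072734 with DMSO, against 42417643 to 44910378 in A549 with BRM014 and 40684360 to 50177678 with DMSO. A header shared by 2 columns leaves a pair of A549 BRM014 libraries, called a and b here, without replicate numbers, and they were used as replicates of their group. The labels do not say whether replicates were separate cultures, so p-values reflect only how far these libraries spread, possibly for technical reasons. Cells were measured in bulk, so fewer expressing cells and less RNA per cell cannot be told apart, and spike-in counts were not used here, so each level is a share of what its library holds. Whether the counting used strand is not given in the sources used here, and LDHA and BNIP3 have processed pseudogenes in the human genome, so reads shared with overlapping genes or such copies are uncertain.

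BRM014 moved these genes in both directions, with ADM having the highest and SLC2A1 the lowest log2 fold change of the set in both lines. In H1299, 5 of the 9 genes passed the threshold (an adjusted p under 0.05 over all genes tested), ADM higher and SLC2A1, HK2, PFKFB3 and BNIP3 lower; 22% of all 14986 genes tested passed it, 9.29% higher and 12.7% lower. In A549, 7 of 10 passed, ADM and PFKFB3 higher and SLC2A1, HK2, LDHA, CA9 and BNIP3 lower, where 37% of 15188 genes did, 17.7% higher and 19.4% lower. Every gene of the set with a row in a table passed the filter on low counts there. Their median log2 fold change was -0.34 in H1299 and -0.12 in A549, while all genes tested had medians of 0.0029 and 0.0169. Their median absolute log2 fold change was 0.41 in H1299 and 0.28 in A549, against 0.096 and 0.16 for all genes. The ranges of the BRM014 and DMSO libraries did not overlap for 6 of 9 genes in H1299, where that held for 35.2% of all genes, and for 8 of 10 in A549, where it held for 48.2%. Since the genes were picked with earlier results known, these comparisons with all genes only describe the set.

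**Figure D1:**
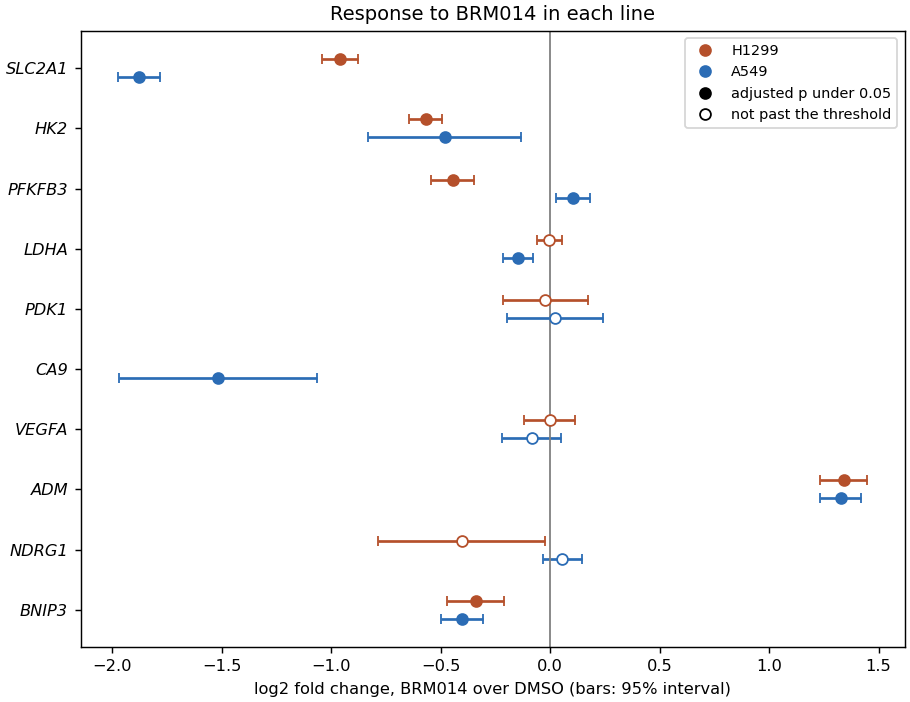
Log2 fold change of each gene, BRM014 over DMSO, with its 95% interval from edgeR; H1299 is drawn above A549 for each gene, and filled points passed the threshold. ADM lies at 1.34 in H1299 and 1.33 in A549, SLC2A1 at -0.96 and -1.88, and VEGFA and PDK1 lie near 0 in both lines.

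SLC2A1 encodes GLUT1, the transporter that carries glucose across the plasma membrane. Its level, in CPM (counts scaled to library size, with TMM factors computed within the line), was 42.4, 43.6 and 43.3 in the H1299 libraries with BRM014, and 83.9, 81.3 and 86.6 with DMSO. In A549 it was 68.1 (replicate 3), 75.1 (a) and 72.0 (b) with BRM014, and 268, 266 and 258 with DMSO. All treated libraries lay below all control libraries in each line, with a wide gap. The level fell to 51.4% of the DMSO level in H1299 (95% interval 48.5% to 54.4%), with log2 fold change -0.96, standard error (SE) 0.04 and adjusted p = 6.44e-20 in edgeR's quasi-likelihood test. It fell to 27.2% in A549 (25.5% to 29.0%), with log2 fold change -1.88, SE 0.04 and adjusted p = 8.14e-11. Only 268 genes had a lower log2 fold change in H1299, and 200 in A549.

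HK2, hexokinase, phosphorylates glucose as it enters the cell. In H1299 it had 68.2, 68.3 and 70.2 CPM with BRM014, and 104, 98.3 and 104 CPM with DMSO. These ranges were well apart, and HK2 fell to 67.4% of the DMSO level (log2 fold change -0.57 with SE 0.04, adjusted p = 1.16e-14). A549 held very little HK2 mRNA, 45, 55 and 46 counts with BRM014 and 74, 62 and 72 with DMSO, or 1.04, 1.27 and 1.00 CPM with BRM014 and 1.63, 1.55 and 1.46 CPM with DMSO. The ranges there were apart but close, and the fall (log2 fold change -0.48, SE 0.16) had an adjusted p of 0.0325. That call rests on few counts: the adjusted p was 0.095 without BRM014 replicate 3, 0.117 without b, 0.0891 without DMSO replicate 1, 0.0772 without DMSO replicate 2, 0.102 without both a and b, and 0.109 in DESeq2.

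PFKFB3 makes the metabolite that activates phosphofructokinase, and so sets the pace of glycolysis. In H1299 it had 31.5, 32.6 and 34.3 CPM with BRM014, and 46.1, 44.4 and 43.2 CPM with DMSO. The treated libraries were all lower, and PFKFB3 fell to 73.4% of the DMSO level (log2 fold change -0.45, SE 0.05, adjusted p = 3.38e-09). In A549 it had 632, 681 and 660 CPM with BRM014, and 607, 629 and 599 CPM with DMSO. Here the treated libraries were slightly higher, the lowest of them only just above the highest control, and the rise was to 107% of the DMSO level (log2 fold change 0.10, SE 0.03, adjusted p = 0.0338). That rise was not past the threshold without library a (0.06, adjusted p = 0.216), b (0.112), DMSO replicate 1 (0.0672) or DMSO replicate 3 (0.111), nor with DESeq2 size factors (0.0538), in DESeq2 (0.106) or in the joined fit of both lines (0.0928). Without both a and b the log2 fold change was 0.02 (adjusted p = 0.8).

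LDHA, lactate dehydrogenase A, turns pyruvate into lactate. Its level in H1299 was 497, 536 and 518 CPM with BRM014, and 520, 519 and 517 CPM with DMSO. The control libraries lay inside the range of the treated ones, and the log2 fold change of -0.0043 had a 95% interval of -0.06 to 0.05. In A549 it was 1450, 1370 and 1410 CPM with BRM014, and 1510, 1570 and 1610 CPM with DMSO. The treated libraries were all lower, and LDHA fell to 90.2% of the DMSO level (log2 fold change -0.15, SE 0.03, adjusted p = 0.00328). A test against a change of 1.2-fold did not call this fall (adjusted p = 1).

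PDK1 is a kinase that switches off pyruvate dehydrogenase and so keeps pyruvate out of the mitochondrial cycle. In H1299 it had 7.26, 8.25 and 8.36 CPM with BRM014, and 7.46, 8.53 and 8.42 CPM with DMSO. In A549 it had 3.88, 3.55 and 3.50 CPM with BRM014, and 3.51, 3.42 and 3.80 CPM with DMSO. The ranges overlapped in both lines and neither difference passed the threshold. The log2 fold change was -0.02 in H1299 (95% interval -0.22 to 0.17, adjusted p = 0.909) and 0.02 in A549 (-0.20 to 0.24, adjusted p = 0.893), where the interval reaches 1.18-fold. Of the 5 genes of glucose use, 3 fell and 0 rose in H1299, where 12.7% of all genes fell and 9.29% rose. In A549 3 fell and 1 rose, where 19.4% of all genes fell and 17.7% rose. The gene that rose is PFKFB3, past the threshold in 6 of 15 alternative settings, and HK2 among those that fell was past it in 7 of 14.

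**Figure D2:**
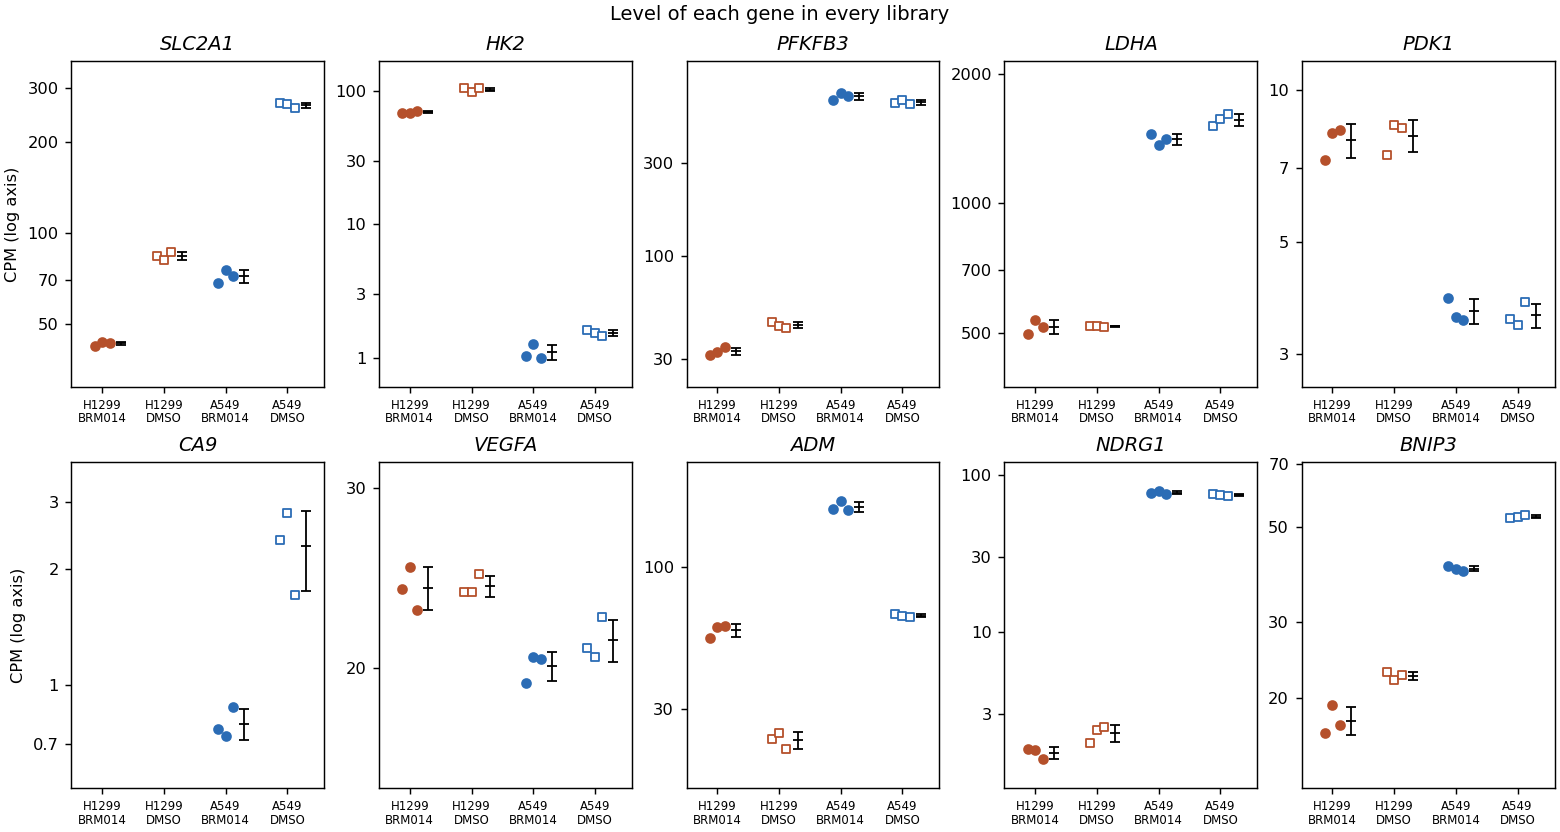
CPM of each gene in every library, on log axes that differ between panels and with TMM scaling within each line; filled circles are BRM014, open squares DMSO, and the black bar beside each group is its mean and SD (n = 3). ADM is higher and SLC2A1, HK2 and BNIP3 are lower in all 3 BRM014 libraries of each line, and CA9 is drawn for A549 alone.

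ADM encodes the precursor of adrenomedullin, a secreted peptide that widens blood vessels and whose gene is a standard hypoxia target. Its level in H1299 was 55.0, 60.1 and 60.8 CPM with BRM014, and 23.4, 24.6 and 21.4 CPM with DMSO. In A549 it was 163 (replicate 3), 175 (a) and 162 (b) CPM with BRM014, and 67.1, 66.3 and 65.8 CPM with DMSO. The groups were far apart in both lines, and ADM rose by similar factors from different levels. The rise was 2.53-fold in H1299 (95% interval 2.35 to 2.73, log2 fold change 1.34, SE 0.05, adjusted p = 7.25e-21) and 2.51-fold in A549 (2.35 to 2.68, log2 fold change 1.33, SE 0.04, adjusted p = 9.21e-10). In H1299 only 9 of the genes tested had a larger log2 fold change; in A549 134 did. At least 2-fold rises past the threshold were 0.314% of the genes tested in H1299 and 1.88% in A549.

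VEGFA, the main growth factor for new blood vessels, passed the threshold in neither line. It had 23.9, 25.1 and 22.8 CPM in H1299 with BRM014, and 23.7, 23.7 and 24.7 CPM with DMSO. In A549 it had 19.3, 20.5 and 20.4 CPM with BRM014, and 20.9, 20.5 and 22.4 CPM with DMSO. The ranges overlapped in both lines. The log2 fold change was -0.0028 in H1299 (95% interval -0.12 to 0.11, adjusted p = 0.982) and -0.09 in A549 (-0.22 to 0.05, adjusted p = 0.301).

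CA9, a carbonic anhydrase on the cell surface that regulates pH and is commonly used as a hypoxia marker, was low in A549. It had 33, 32 and 40 counts with BRM014, which is 0.766, 0.738 and 0.874 CPM, and 108, 112 and 85 counts with DMSO, which is 2.38, 2.80 and 1.72 CPM. All treated libraries were lower, although the DMSO libraries differed among themselves with a coefficient of variation of 23.7%, the highest of any gene of the set in any group. CA9 fell to 34.9% of the DMSO level (95% interval 25.5% to 47.8%), with log2 fold change -1.52, SE 0.21 and adjusted p = 0.000117. Falls of at least 2-fold past the threshold made up 4.6% of the genes tested in A549 and 1.61% in H1299.

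BNIP3, a mitochondrial outer membrane protein that marks mitochondria for removal, had 16.6, 19.2 and 17.3 CPM in H1299 with BRM014, and 22.9, 22.0 and 22.6 CPM with DMSO. In A549 it had 40.4, 39.9 and 39.4 CPM with BRM014, and 52.3, 52.7 and 53.2 CPM with DMSO. The groups did not overlap in either line. BNIP3 fell to 78.9% of the DMSO level in H1299 (log2 fold change -0.34, SE 0.06, adjusted p = 9.49e-05) and to 75.6% in A549 (log2 fold change -0.40, SE 0.04, adjusted p = 2.11e-05). A test against a change of 1.2-fold did not call the H1299 fall (adjusted p = 0.437).

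NDRG1, a cytoplasmic protein induced by hypoxia and other stresses, had a far lower level in H1299 than in A549. In A549 it had 76.9, 79.6 and 76.1 CPM with BRM014, and 75.5, 74.9 and 73.4 CPM with DMSO. The treated libraries were all slightly higher, but the log2 fold change of 0.06 (95% interval -0.03 to 0.15) did not pass the threshold (adjusted p = 0.323). H1299 held 56, 75 and 50 counts with BRM014, or 1.80, 1.79 and 1.55 CPM, and 78, 75 and 70 counts with DMSO, or 1.97, 2.40 and 2.50 CPM. These ranges did not overlap either, and the log2 fold change of -0.41 (-0.79 to -0.02) had an unadjusted p of 0.039 and an adjusted p of 0.129. The joined edgeR fit of both lines gave an adjusted p of 0.0426, with an SE of 0.13 against 0.19 in H1299 alone. Of the targets outside glucose use, 1 rose and 1 fell among the 4 tested in H1299, where 22% of all genes were called in either direction. In A549 1 rose and 2 fell among the 5 tested, where 37% of all genes were called.

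**Figure D3:**
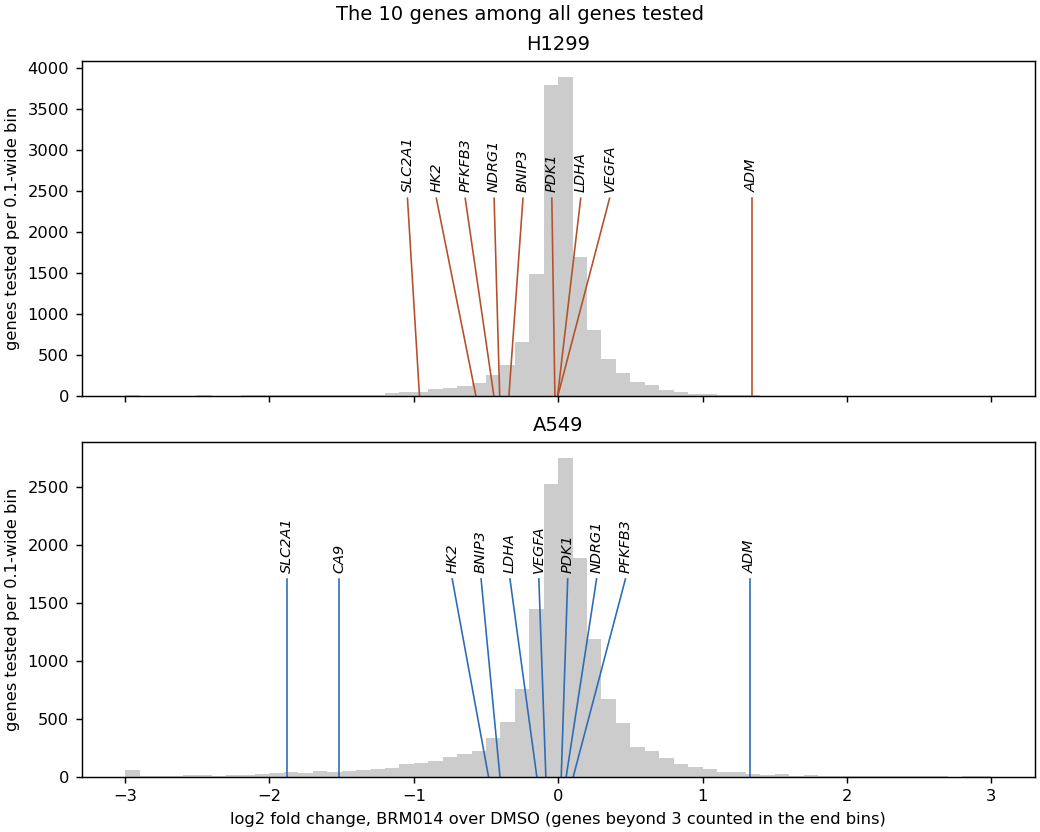
Number of genes tested per bin of log2 fold change, BRM014 over DMSO, in H1299 (above) and A549 (below), with the genes of the set marked; genes beyond 3 are counted in the end bins. Between the 5th and 95th percentile the log2 fold changes ran from -0.51 to 0.41 in H1299 and from -0.96 to 0.65 in A549, and ADM and SLC2A1 lie outside that span in both lines.

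The change of ADM relative to SLC2A1 can be read within a library, where no scaling between libraries enters. Such a ratio does not show which of these genes moved. For each count of SLC2A1 there were 1.3, 1.38 and 1.41 counts of ADM in the H1299 libraries with BRM014, and 0.279, 0.302 and 0.247 with DMSO. In A549 there were 2.40, 2.33 and 2.25 with BRM014, and 0.251, 0.249 and 0.255 with DMSO. The ratio was thus above 1 in every treated library and under 1 in every control library. Its mean was 1.36 ± 0.0567 with BRM014 and 0.276 ± 0.0276 with DMSO in H1299 (SD, n = 3 each), a 4.93-fold difference, and 2.32 ± 0.0758 against 0.252 ± 0.00299 in A549, a 9.23-fold difference. These genes were paired after their values were seen, so the ratio is given without a test, and as it is not per length it does not compare their levels.

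A test of the interaction of line and treatment called 4 of the 9 genes as responding differently in H1299 and A549, 2 in each direction. Of 16466 genes tested 19.5% were called, 10.2% with a more positive response in H1299 and 9.25% with a more negative one. SLC2A1 fell less in H1299 than in A549: the log2 fold changes differed by 0.94 (SE 0.06, adjusted p = 3.54e-11). PFKFB3 fell in H1299 and not in A549, a difference of -0.53 on the log2 scale (SE 0.06, adjusted p = 4.22e-07). The LDHA response was more positive in H1299, by 0.17 (SE 0.05, adjusted p = 0.0193). The NDRG1 response was more negative there, at -0.43 (SE 0.13, adjusted p = 0.0262), although its change passed the threshold in neither line alone. This SE is below the 0.19 of the H1299 response fitted alone, because the joined fit gives both lines 1 spread per gene. DESeq2 gave the NDRG1 difference an SE of 0.16 and limma-voom 0.17. The call thus leans on the shared spread.

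The LDHA and NDRG1 differences were sensitive to single libraries. For LDHA the adjusted p was 0.051 without H1299 BRM014 replicate 2, 0.0515 without H1299 DMSO replicate 3, 0.0512 without A549 DMSO replicate 2, and 0.139 without both a and b. For NDRG1 it was 0.0992 without H1299 BRM014 replicate 3, 0.0881 and 0.101 without H1299 DMSO replicates 2 and 3, 0.061 without both a and b, and 0.0952 in limma-voom.

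For the other 5 genes a difference in response was not shown. ADM had a log2 difference of 0.04, H1299 minus A549, with a 95% interval of -0.11 to 0.19 (adjusted p = 0.787). That of BNIP3 was 0.09 (-0.08 to 0.25, adjusted p = 0.51) and that of VEGFA 0.11 (-0.07 to 0.28, adjusted p = 0.442). HK2 (-0.06, interval -0.37 to 0.24) and PDK1 (-0.02, interval -0.31 to 0.27) had wider intervals. The HK2 interval may still be too narrow, since its SE of 0.15 is below the 0.16 of A549 fitted alone.

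In DMSO, HK2 and PDK1 were higher in H1299 than in A549, and SLC2A1, PFKFB3, LDHA, ADM, NDRG1 and BNIP3 were lower. These are 8 of the 9 genes, a share near that of all 16466 genes tested, of which 85.7% differed (42.9% higher and 42.8% lower in H1299). The median absolute log2 difference was 1.82 for the 9 genes and 0.84 for all genes. The share of library counts taken by the analysed genes of the set was 0.0757% to 0.0798% in H1299 with BRM014 and 0.0817% to 0.0822% with DMSO, against 0.248% to 0.25% in A549 with BRM014 and 0.255% to 0.265% with DMSO. Levels in the following comparisons are CPM with TMM factors of the joined fit of all 12 libraries.

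HK2 had the widest gap. Its level was 95.2 ± 3.38 CPM in H1299 with DMSO and 1.68 ± 0.0874 CPM in A549 with DMSO (SD, n = 3 each). That is 56.5-fold higher in H1299 (adjusted p = 6.3e-28 in edgeR, with a 95% interval of 50.9 to 62.7). The SE of this log2 difference was 0.07 in edgeR, 0.11 in DESeq2 and 0.12 in limma-voom. The edgeR interval is thus likely too narrow. NDRG1 and PFKFB3 went the other way. NDRG1 had 2.13 ± 0.251 CPM in H1299 and 81.3 ± 0.834 CPM in A549, so H1299 held 2.60% of the A549 level (adjusted p = 3.76e-27). PFKFB3 had 41.5 ± 1.55 CPM in H1299 and 667 ± 18.1 CPM in A549, which is 6.23% of the A549 level (adjusted p = 7.38e-29).

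The remaining gaps were smaller. H1299 with DMSO had 27.2% of the A549 level of SLC2A1, 28.3% of that of LDHA, 29.8% of that of ADM and 36.4% of that of BNIP3, with adjusted p-values of 4.6e-18 or less. PDK1 was 1.93-fold higher in H1299 (7.57 ± 0.512 CPM against 3.90 ± 0.226 CPM, adjusted p = 3.18e-09). VEGFA had 22.4 ± 0.483 CPM in H1299 and 23.2 ± 1.18 CPM in A549, with overlapping ranges and a log2 difference of -0.05 (95% interval -0.18 to 0.07, adjusted p = 0.398). Scaled by library totals instead, the median log2 difference of all genes was 0.24, against 0.02 with TMM factors, and that of VEGFA was 0.17 (adjusted p = 0.0115), which is below the shifted median.

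**Figure D4:**
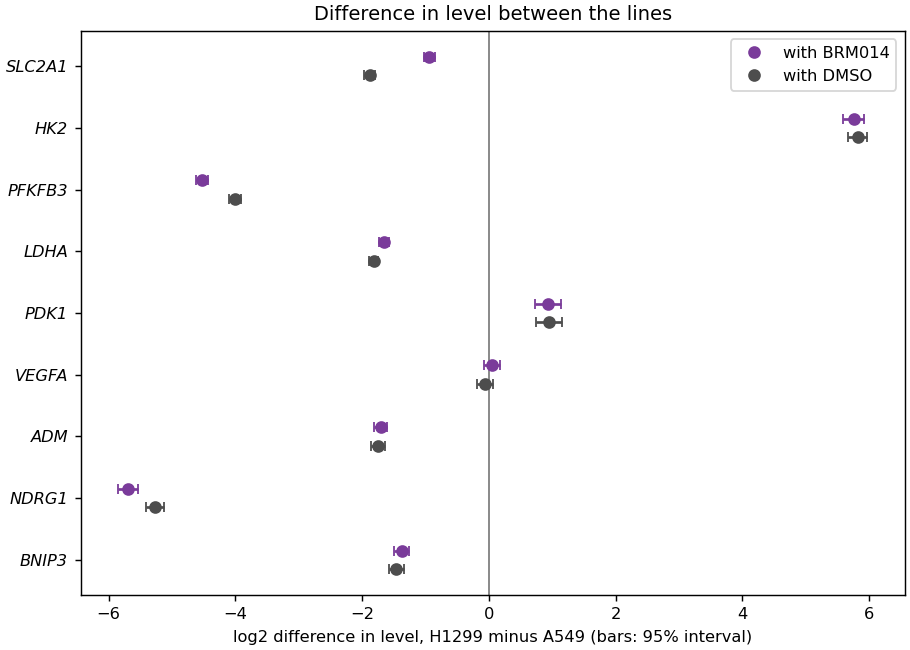
Log2 difference in level between the lines, H1299 minus A549, with its 95% interval from the joined fit, with BRM014 (drawn above) and with DMSO for each gene. HK2 lies at 5.76 with BRM014 and 5.82 with DMSO, NDRG1 at -5.70 and -5.27, and SLC2A1 at -0.94 and -1.88. The HK2 and NDRG1 intervals are likely too narrow: with DMSO their SE was 0.07 in edgeR, 0.11 in DESeq2 and 0.12 in limma-voom.

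With BRM014 the 8 genes again differed, each in its DMSO direction, where 85.5% of all genes differed (42.7% higher and 42.8% lower in H1299). The SLC2A1 gap was narrower. SLC2A1 had 40.1 ± 0.819 CPM in H1299 with BRM014, 77.0 ± 3.80 CPM in A549 with BRM014, 78.1 ± 2.47 CPM in H1299 with DMSO and 287 ± 4.54 CPM in A549 with DMSO (SD, n = 3 each). On this joined scaling, A549 cells given the inhibitor (72.8 to 80.2 CPM) and H1299 cells given the solvent (75.5 to 80.4 CPM) had overlapping SLC2A1 levels. That overlap depends on the scaling. With factors computed within each line the ranges were apart, at 68.1 to 75.1 CPM and 81.3 to 86.6 CPM. With BRM014, H1299 held 52.2% of the A549 level, against the 27.2% with DMSO.

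ADM, whose response was not shown to differ between the lines, had 54.7 ± 3.23 CPM in H1299 with BRM014 and 179 ± 7.14 CPM in A549 with BRM014, and 21.5 ± 1.51 CPM and 72.3 ± 0.320 CPM with DMSO. Treated H1299 cells (50.9 to 56.7 CPM) stayed below A549 cells given DMSO (72.0 to 72.6 CPM). For PFKFB3, H1299 had 4.33% of the A549 level with BRM014 and 6.23% with DMSO. On this joined scaling the A549 libraries with BRM014 (676 to 728 CPM) and with DMSO (656 to 688 CPM) overlapped. For PDK1 the treated and control libraries overlapped within each line. VEGFA overlapped in H1299 but not in A549 on this scaling (20.6 to 22.0 CPM with BRM014 and 22.4 to 24.6 CPM with DMSO), and it ranged over all 12 libraries from 20.6 to 24.6 CPM.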

How the data were processed

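RNA-seq was analysed for 12 of the 107 samples; 95 others were not analysed here. For each line the authors deposited a single table of whole-number raw counts. Build hg38 is named per the submitters' processing notes, with STAR 2.7.3a, Bowtie 1.2.2, DESeq2, featureCounts and cutadapt 1.14 as tools; what each did, which annotation was used and how strand was set is not given in the sources used here. Per the labels' protocols, 500 ng of RNA went into each stranded total RNA library after rRNA depletion.

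Counts were tested with edgeR 4.0.16 (R 4.3.3): filterByExpr (minimum count 10, minimum total 15), TMM factors, and the two-sided quasi-likelihood test with Benjamini-Hochberg adjustment at 0.05 over all genes tested. Each line was fitted alone; differences between lines came from a joined fit of 12 libraries over shared identifiers, with 1 spread per gene. Standard errors were taken as log2 fold change over root F. For the HK2 and NDRG1 differences between lines this gave smaller values than DESeq2 and limma-voom did. The steps were tested on simulated data, with changes placed only in well-counted genes and larger than the weakest calls here. That test does not cover small changes or low counts. All replicate pairs differed beyond sampling noise: chi-square per degree of freedom was 2.2 to 11.1.

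The genes and lists were chosen with earlier results of these data known. All 10 genes are named. The name table at hand matched 0 of 10 identifiers, so the wider pathway lists, cell line markers, gene lengths and positions were not used. Correlations between genes were also planned and are not given. Over deviations from line means they would reflect the clusters of libraries by treatment, and those over deviations from group means are left out as well. Alternatives were DESeq2 size factors, library totals, limma-voom (limma 3.58.1), DESeq2 1.42.0, no filter, at least 5 CPM in 3 libraries, a test against 1.2-fold, the joined fit, a replicate block and leaving out each library. Leaving out both a and b was added after seeing the data.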

Additional observations from a re-analysis of the deposited data

Results flagged for a closer look

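For 4 of the 9 genes the response to BRM014 was called different between the lines by the interaction test in edgeR, where 19.5% of 16466 genes were. The log2 differences, H1299 minus A549, were 0.94 for SLC2A1 (adjusted p = 3.54e-11) and -0.53 for PFKFB3 (adjusted p = 4.22e-07). They were 0.17 for LDHA (adjusted p = 0.0193) and -0.43 for NDRG1 (adjusted p = 0.0262). Each of the latter was past the threshold in only 9 of 12 fits that left out a library. Over the planned and added alternatives SLC2A1 ranged from 0.89 to 1.02 and PFKFB3 from -0.57 to -0.46, both past the threshold in each. H1299 rests on 50 to 78 NDRG1 counts per library, and the SE of the NDRG1 difference (0.13) is below that of the H1299 response fitted alone (0.19).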

How the results depend on the processing

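Of 24 called results for single genes, 18 passed the threshold wherever they could be tested again and 0 of 401 repeats reversed. HK2, PFKFB3 and LDHA in A549, BNIP3 in H1299, and the LDHA and NDRG1 differences between lines lost it in some, in 29 repeats. In A549 the test against 1.2-fold left 4 genes (1 higher, 3 lower), and 16.1% of all genes, against 37% in the test reported. The higher genes were 1 with DESeq2 size factors (37.2% of all genes called in either direction), in DESeq2 (34.3%), in the joined fit (37.3%) and without both a and b (28.7%). The 5 CPM filter (40.3%), which removes HK2, PDK1 and CA9 in A549, left 3 lower. Differences between lines numbered 2 (1 in each direction) against 1.2-fold (6.64% of all genes) and without both a and b (19.1%), and limma-voom (19.2%) left 1 more negative. Leaving out a library gave 5 to 6 genes in A549 (1 to 2 higher, 4 to 5 lower), 5 in H1299, and 2 to 4 for the interaction (1 to 2 in each direction), while 28.3% to 38.9%, 16.8% to 22.4% and 15.9% to 22.3% of all genes were called in those comparisons. Results near 0 changed sign. With library totals in H1299 these were LDHA (0.03), PDK1 (0.01) and VEGFA (0.03), and between lines the ADM response (0.00) and VEGFA in DMSO (0.17). That VEGFA difference also passed the threshold with library totals (adjusted p = 0.0115 in edgeR). VEGFA was 0.00 in limma-voom, without a filter and under the 5 CPM filter, LDHA 0.00 under the last, PDK1 in A549 0.00 in the joined fit, and the HK2 response difference 0.02 without both a and b. Without a library, log2 fold changes ran from -0.03 to 0.02 (LDHA), -0.09 to 0.04 (PDK1) and -0.04 to 0.03 (VEGFA) in H1299 and -0.03 to 0.07 (PDK1) in A549, and response differences from -0.01 to 0.09 (ADM), -0.13 to 0.04 (HK2) and -0.08 to 0.04 (PDK1). With the replicate block, 5 genes were called in H1299 (21.8% of all genes). For same-numbered libraries the deviations gave r = -0.0552, -0.0272 and 0.011. Correlations this small cannot show whether libraries with the same number shared a culture, and the labels do not say. Whether they were paired was thus not tested. No paired analysis was possible in A549 because libraries a and b carry no number. Depth limits HK2 and CA9 in A549 and NDRG1 in H1299.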
